A study of Mus musculus with 6 samples.

Results

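The 10 core circadian clock genes Arntl, Clock, Npas2, Per1, Per2, Per3, Cry1, Cry2, Nr1d1 and Nr1d2 were followed through the open chromatin of activated mouse CD8+ T cells. A called peak was counted for one of these genes when its summit lay inside the gene, or when that gene was the nearest of 21883 protein-coding RefSeq genes and lay within 100 kb. This gave 573 of the 573921 peaks in 6 libraries, and 131 of the 134174 regions that formed when peaks overlapping by at least 1 bp were joined. Chromatin was profiled by ATAC-seq, in which a transposase cuts open DNA and tags it for sequencing. The T cells of one group shared a transwell with Res-shFabp7 tumour cells, which are PD-1-resistant lung adenocarcinoma cells carrying a short hairpin RNA against Fabp7, a fatty acid binding protein (3 libraries). The controls shared it with Res-ctrl cells, the resistant tumour cells labelled as control (3 libraries). In both groups the T cells came from spleen, were purified by depletion of other cells, were stimulated with anti-CD3ε at 5 µg/mL and anti-CD28 at 1 µg/mL and were collected after 48 h. The hairpin was in the tumour cells, which a membrane kept apart from the T cells, so the knockdown cannot be checked in these libraries. The labels call the libraries biological replicates and name no animals, ages, strains or hours of the day, so p-values measure the spread between these libraries, which may be technical. In such bulk samples, a larger share of cells with a region open and a wider opening per cell cannot be told apart.

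The circadian clock is a feedback loop of transcription. ARNTL (also called BMAL1) pairs with CLOCK, or with the related NPAS2, and the pair switches on genes through E-box sequences. Among those genes are the Per and Cry genes, whose proteins return to block the pair, and Nr1d1 and Nr1d2, whose proteins (REV-ERB alpha and beta) repress Arntl through ROR elements. T cells hold this loop too.

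Promoter sequences came from RefSeq (GRCm38.p6, the primary assembly of mm10, each running from 250 bases before an annotated start to 50 after it), and 9 of the 10 genes matched (all but Per2). Only the bases before the start are shown, except for 1 short site. Per1 is given for its E-box, Cry1 for its E-box and for the variant form next to it, Per3 for its pair of D-boxes, Nr1d2 because its start region came closest to the threshold of the height test, and the Arntl site for its ROR element. Capitals mark the motif, which for the ROR element was searched only as the letters AGGTCA, without the bases before them.
Per1, chr11:69098699-69098948, plus strand, E-box: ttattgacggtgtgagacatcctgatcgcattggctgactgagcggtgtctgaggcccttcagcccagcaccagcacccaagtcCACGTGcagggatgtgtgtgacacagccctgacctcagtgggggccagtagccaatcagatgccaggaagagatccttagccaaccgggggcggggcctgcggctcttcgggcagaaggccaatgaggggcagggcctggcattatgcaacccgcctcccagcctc
Cry1, chr10:85185055-85185304, minus strand, variant E-box then E-box: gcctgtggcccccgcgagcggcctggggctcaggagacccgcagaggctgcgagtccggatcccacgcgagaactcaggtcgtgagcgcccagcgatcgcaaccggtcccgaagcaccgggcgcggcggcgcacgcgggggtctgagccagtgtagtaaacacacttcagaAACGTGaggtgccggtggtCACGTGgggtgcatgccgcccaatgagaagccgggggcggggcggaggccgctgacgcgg
Per3, chr4:151044666-151044915, minus strand, D-boxes: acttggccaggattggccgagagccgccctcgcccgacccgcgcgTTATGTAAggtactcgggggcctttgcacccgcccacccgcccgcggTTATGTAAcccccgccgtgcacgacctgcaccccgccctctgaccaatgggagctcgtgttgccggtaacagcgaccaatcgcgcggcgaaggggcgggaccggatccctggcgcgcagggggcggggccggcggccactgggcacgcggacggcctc
Nr1d2, chr14:18239107-18239356, minus strand, ROR element: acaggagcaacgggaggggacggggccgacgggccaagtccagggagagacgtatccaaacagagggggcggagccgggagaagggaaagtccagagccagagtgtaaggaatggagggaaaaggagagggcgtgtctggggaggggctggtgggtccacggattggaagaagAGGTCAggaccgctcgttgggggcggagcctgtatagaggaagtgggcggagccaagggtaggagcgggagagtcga
Arntl, chr7:113207530-113207557, plus strand, ROR element: aaggcagaaagtAGGTCAgggacggagg

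Motifs were searched on both strands in the 300-base promoters. The E-box CACGTG was found at Per1 and Cry1, and it is held by 8.91% of the 17491 protein-coding genes with a promoter in the table. Its variant CACGTT was found at Cry1, Cry2 and Nr1d1, against 5.49% of genes. The D-box TTATGTAA, bound by the clock output factors of the DBP family, was found in 2 copies at Per3 and in 1.05% of genes. The letters AGGTCA of the ROR element were found at Arntl, Clock, Per1 and Nr1d2, against 16.7% of genes, and no member held the cAMP element TGACGTCA, held by 2.54%. A match is a run of letters, not a bound site.

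In Per1 the E-box lay under the top of the peak. The summit fell inside the 6 letters, 166 bases before the annotated start, in all Res-shFabp7 libraries and in Res-ctrl replicates 1 and 3, and 39 bp away in Res-ctrl replicate 2. A peak covered the motif in 6 of 6 libraries at Cry1, Cry2, Per3, Nr1d2 and Arntl as well. At Cry2 the summits were 64, 70 and 64 bp away with Res-shFabp7 and 72, 64 and 72 bp with Res-ctrl. At Arntl the ROR element lay farther from the summit, at 227, 206 and 205 bp with Res-shFabp7 and 206, 227 and 174 bp with Res-ctrl. The Cry1 peak is broad, and its summit was 242, 247 and 217 bp from the E-box with Res-shFabp7 but 246, 20 and 10 bp with Res-ctrl. The Nr1d1 variant was covered in 4 libraries, replicates 2 and 3 of Res-shFabp7 and 1 and 3 of Res-ctrl. The Clock match, before its most downstream start, lay under no peak.

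Most clock genes had a called region at a start in every library of both groups. Of the 9 genes with a promoter in the table, 8 had an annotated start inside a region called in all 6 libraries, as did 49.8% of protein-coding genes. The exception was Npas2, whose start lay 41 bp outside such a region. The start base itself was under a peak in all 6 libraries at Arntl, Clock (2 of its 3 starts), Per1, Cry1, Cry2 and Nr1d2. At Per3 it was under a peak in 3 Res-shFabp7 libraries and 1 Res-ctrl library, and at Nr1d1 in 1 and 0. For Per2 the 5′ end of the gene body, at 91459351, was used, and it lay inside a region called in all 6 libraries. Height is given below as pileup, the authors' coverage at a peak's summit, which follows the depth of a library. The pileups and folds of peaks are the authors' own. Height is also given as normalised log2 pileup, for which the 56610 regions called in all 6 libraries were brought to one distribution.

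Among the activators, the Arntl start region (chromosome 7, 113207014 to 113207600) had pileups of 382, 343 and 410 with Res-shFabp7, and 346, 282 and 435 with Res-ctrl. The share of a list's peaks below it was lowest in Res-shFabp7 replicate 2, at 99.18%. Its normalised height was 8.46 ± 0.07 and 8.54 ± 0.06 (SD, n = 3 each), and the groups overlapped. Clock, the partner of ARNTL, had a lower but wider start region of 1369 bp (chromosome 5, 76303718 to 76305086), which held 2 annotated starts. Its pileups were 78, 89 and 73 with Res-shFabp7 and 65, 68 and 107 with Res-ctrl. They were read at the highest peak, whose summit lay at different places in different libraries. Res-ctrl replicate 3 had a single peak of 1348 bp there, and the other libraries had separate narrower peaks. That single peak counts once in the peak counts below. The region nearest the Npas2 start (chromosome 1, 39193925 to 39194231) was the lowest of the start regions, with pileups of 43, 39 and 45 with Res-shFabp7 and 33, 28 and 40 with Res-ctrl. The tallest Npas2 region lay inside the gene, 10768 bp from the start (39205040 to 39205382), with pileups of 139, 138 and 148 against 71, 101 and 121.

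Among the start regions of the Per and Cry repressors, those of Per2 and Cry2 stood highest. The Per2 region at the 5′ end of the gene (chromosome 1, 91459201 to 91459861) reached pileups of 444, 433 and 435 with Res-shFabp7. With Res-ctrl it reached 317, 280 and 514. The Cry2 start region (chromosome 2, 92433609 to 92434540) reached 405, 376 and 373 against 360, 270 and 489. In both genes Res-ctrl replicate 3 was the highest and Res-ctrl replicate 2 the lowest of the 6 libraries. Cry1 (chromosome 10, 85184784 to 85185730) had 219, 226 and 225 with Res-shFabp7 and 177, 153 and 234 with Res-ctrl. The Per3 start region (chromosome 4, 151044484 to 151045086) had 129, 114 and 125 against 117, 77 and 133, and it is shared with the gene model Gm38529. The start peak was as near to Per3 as to that model in Res-shFabp7 replicate 2 and Res-ctrl replicates 1 and 2. It lay nearer the model in the other libraries, where it is missing from the peak count of Per3. Per1 had 2 starts in the promoter table, each in a region of its own. The upstream one, with the E-box (chromosome 11, 69098613 to 69098987), had 193, 167 and 172 with Res-shFabp7 and 146, 125 and 217 with Res-ctrl, and the downstream one (69099962 to 69100196) 75, 61 and 67 against 64, 54 and 89. The tallest Per1 region held neither. It lay at the 5′ end of the gene body, 3616 bp before the upstream start (69094698 to 69095333), with 477, 419 and 475 with Res-shFabp7 and 383, 337 and 514 with Res-ctrl.

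The REV-ERB genes differed from each other. Nr1d2 had a start region of 1339 bp (chromosome 14, 18238131 to 18239469) with pileups of 256, 207 and 248 with Res-shFabp7 and 255, 205 and 284 with Res-ctrl. The Nr1d1 start region (chromosome 11, 98775371 to 98775750) was low, with 82, 66 and 57 against 66, 45 and 66. The main opening of Nr1d1 was inside the gene, 1132 bp past the start (98773655 to 98774245), at 289, 254 and 275 with Res-shFabp7 and 209, 176 and 286 with Res-ctrl.

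**Figure D1:**
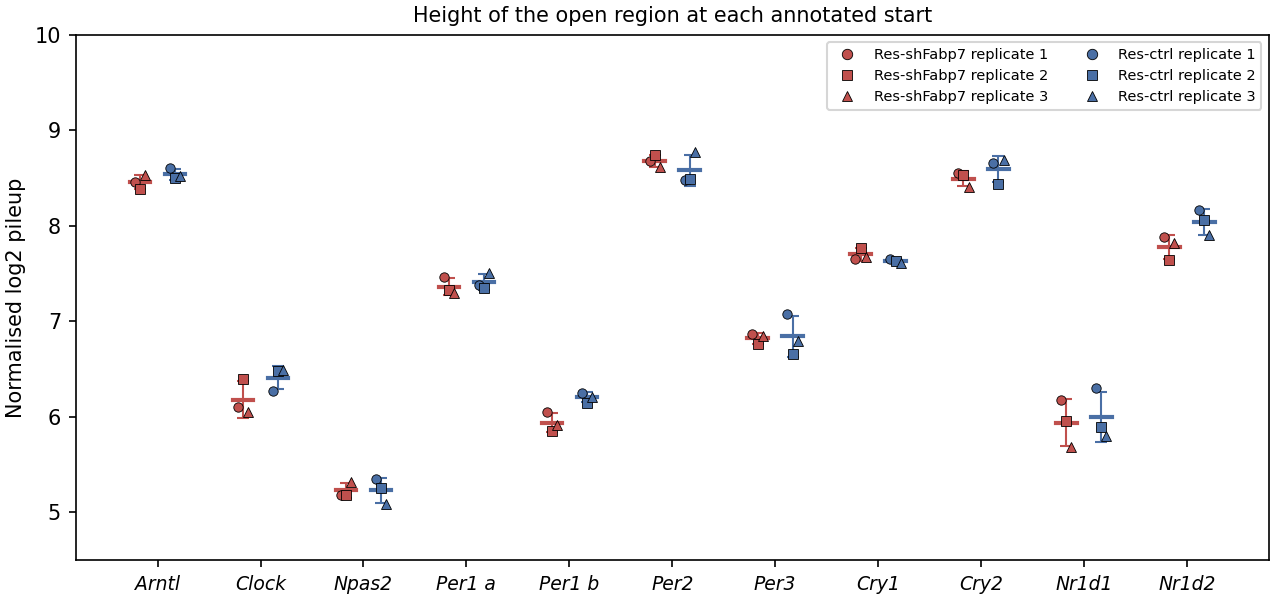
Normalised log2 pileup of the region at each annotated start, by library. Per1 a is the upstream start and Per1 b the downstream one, and for Per2 the 5′ end of the gene body was used. Points are libraries, short lines means and bars SD, with Res-shFabp7 left of Res-ctrl. The genes spread from 5.23 at Npas2 to 8.68 at Per2 with Res-shFabp7, while the groups lie close together within each gene.

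In order of normalised height with Res-shFabp7, Per2 (8.68 ± 0.06), Cry2 (8.49 ± 0.08) and Arntl (8.46 ± 0.07) led, followed by Nr1d2 (7.78 ± 0.12), Cry1 (7.70 ± 0.06), the upstream Per1 start (7.36 ± 0.09) and Per3 (6.82 ± 0.05). Clock (6.18 ± 0.19), the downstream Per1 start (5.94 ± 0.10), Nr1d1 (5.94 ± 0.25) and Npas2 (5.23 ± 0.08) came last (SD, n = 3 each). With Res-ctrl the values were 8.58 ± 0.16, 8.60 ± 0.14 and 8.54 ± 0.06 for the leading genes, whose ranges of mean ± SD overlapped. They were 8.04 ± 0.13 for Nr1d2, 7.63 ± 0.02 for Cry1, 7.41 ± 0.08 for the upstream Per1 start, 6.84 ± 0.21 for Per3 and 6.41 ± 0.12 for Clock. The last places were again the downstream Per1 start (6.20 ± 0.05), Nr1d1 (6.00 ± 0.26) and Npas2 (5.23 ± 0.14). Neighbours whose ranges of mean ± SD overlapped with Res-shFabp7 were Cry2 and Arntl, Nr1d2 and Cry1, and Clock, the downstream Per1 start and Nr1d1.

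Beyond the starts, the genes differed in how many regions they held. Npas2, with a gene body of 169539 bp, had 43 regions, 20 of them called in all 6 libraries, and Arntl had 27, with 9 in all 6. Cry1 had 14 and 8, Per1 10 and 5, Nr1d2 10 and 3, Per3 8 and 3, and Nr1d1 7 and 3. Cry2 and Clock had 5 regions each, of which 3 and 1 were in all 6, while Per2 had 2 and both were shared. In total 57 of the 131 clock gene regions (43.5%) were called in all 6 libraries, against 42.2% of all regions, and 29 (22.1%) in a single library, against 23.3%. Of the 131, 93 touched the gene itself.

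The number of peaks per library moved with the length of the lists. Clock genes had 108, 105 and 100 peaks with Res-shFabp7 (104 ± 4.04, SD, n = 3), and 84, 84 and 92 with Res-ctrl (86.7 ± 4.62, n = 3). The lists themselves differed in the same way, with 104575, 105796 and 100243 peaks against 84844, 82153 and 96310. Per 1000 peaks of a library the clock genes had 1.01 ± 0.0219 with Res-shFabp7 and 0.989 ± 0.0336 with Res-ctrl, and the groups overlapped. The labels give 35000000 to 75000000 read pairs per sample. The most frequent local background of a list, a relative measure of depth, was 1.03, 0.868 and 0.959 with Res-shFabp7 and 0.709, 0.608 and 1.01 with Res-ctrl. By this measure Res-ctrl replicates 1 and 2 were the shallowest libraries, and replicate 3 lay within the range of the other group. Results with equal numbers of peaks are given below beside those of the whole lists. All 8 genes of the CD8 T cell list had a region shared by all libraries, with 3 to 25 such regions each. The 3 CD4 T cell markers did too. In the CD8 list only Cd8a and Cd8b1 are particular to CD8 T cells, while Cd3d, Cd3e, Cd3g, Cd2, Lck and Thy1 are general T cell genes. Such shared regions were also found at 2 of 4 B cell, 3 of 4 myeloid, 1 of 3 NK cell and 2 of 5 epithelial markers. Ms4a1, Krt8 and Sftpc had no region in any library, and Cd79a, Csf1r, Ncr1, Klra8 and Krt18 had none in all 6. The summed normalised pileup of the 4 shared B cell regions was 122 to 127 with Res-shFabp7 and 74.4 to 87.7 with Res-ctrl. The 3 of them at Pax5, a B cell factor gene, were higher with Res-shFabp7 (limma adjusted p of 0.0341 or less). The sums of the other lists were 346 to 378 with Res-shFabp7 and 326 to 386 with Res-ctrl for the myeloid list, 574 to 589 and 553 to 631 for NK cells, 331 to 395 and 353 to 379 for the epithelial list, and 845 to 863 and 913 to 940 for CD4 T cells. For CD8 T cells they were 5580 to 5601 with Res-shFabp7 and 5124 to 5472 with Res-ctrl. Of the marker regions, 2 of 19 epithelial ones, both at Epcam, were called in all Res-shFabp7 libraries and in no Res-ctrl library. The same held for 3 of 164 CD8 T cell regions, 1 of 35 CD4 T cell regions and 2.28% of all regions. The B cell, myeloid and NK cell lists held 0 such regions. The part of other cell types in the differences at clock genes was not tested.

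Arntl alone among the 10 had peak counts that did not overlap between the groups. It had 22, 21 and 21 peaks with Res-shFabp7, against 15, 16 and 17 with Res-ctrl, a difference of 5.33 peaks on means of 21.3 ± 0.577 and 16.0 ± 1.00 (SD, n = 3 each). The two-sided exact permutation p was 0.1, the smallest that 3 against 3 libraries allow, and 0.848 with Benjamini-Hochberg adjustment over the 16421 genes with a peak. Over those genes, 11.3% had counts that were higher without overlap with Res-shFabp7 and 0.536% lower, so the 1 of 10 clock genes was near the background share. With equal numbers of peaks from each library the Arntl groups overlapped, and the difference was 2.22% of the Res-ctrl mean in place of 33.3%.

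In the other genes the counts overlapped. Clock had 7, 8 and 5 peaks with Res-shFabp7 and 5, 4 and 2 with Res-ctrl, and Nr1d1 had 8, 8 and 6 against 5, 3 and 6 (exact permutation p = 0.2 for each). Npas2 had 34, 30 and 26 with Res-shFabp7 and 23, 26 and 28 with Res-ctrl. Per3 had 5, 8 and 8 against 7, 5 and 5, and 6, 8 and 9 against 7, 5 and 6 with all peaks of its start region. Per1 was the only member with a lower mean, 7.67 ± 1.15 against 8.33 ± 0.577 peaks. Per2 had 2 peaks and Cry2 5 in each library of both groups.

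**Figure D2:**
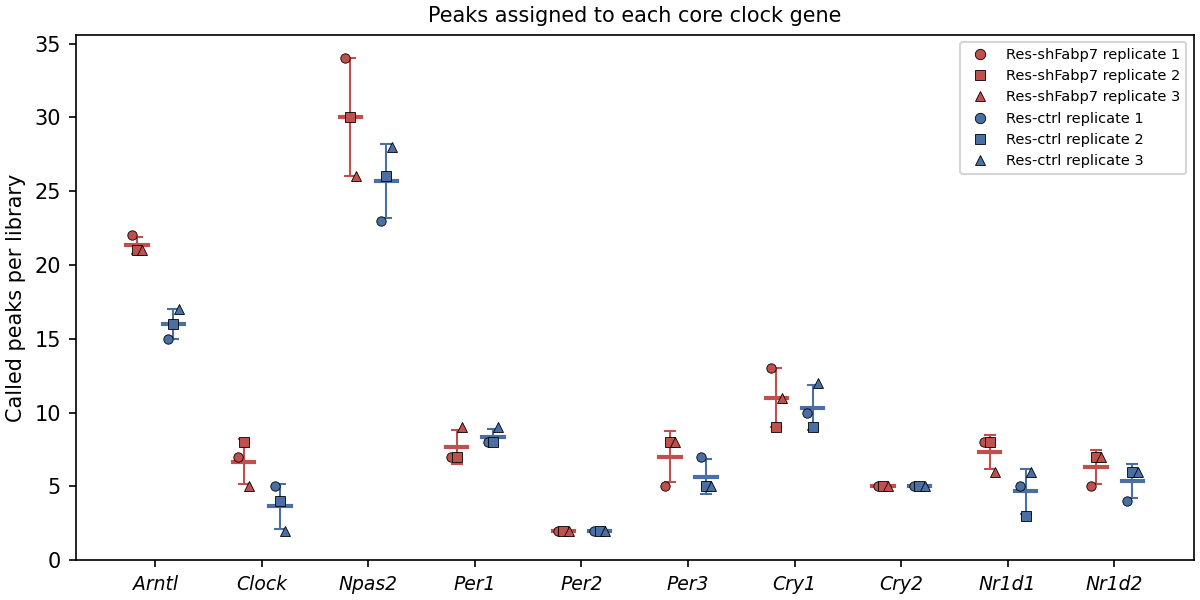
Called peaks assigned to each core clock gene, by library, with group means and SD and Res-shFabp7 left of Res-ctrl. The Arntl libraries with Res-shFabp7 lie at 21 or 22 peaks, above the 15 to 17 of Res-ctrl, and in every other gene the groups overlap.

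A region was called specific to a group when all 3 of its libraries, and none of the other group, had a peak there. At the clock genes 4 regions were specific to Res-shFabp7, 3.05% of the 131, against 2.28% of all regions, and 0 to Res-ctrl, against 0.155%. The share of clock gene regions was thus near that of the whole. A peak in more Res-shFabp7 than Res-ctrl libraries was found in 52 regions (39.7%, against 38.5% of all) and in fewer in 15 (11.5%, against 11.8%). No single region can be tested, as an exact test of 3 against 3 libraries cannot go below 0.1. When each library was cut to its 82153 strongest peaks, the length of the shortest list, no clock gene region was specific to either group, against 1.13% of all regions for Res-shFabp7 and 0.527% for Res-ctrl. The count of 4 became 7 without Res-shFabp7 replicate 1 or 2 and 7 without Res-ctrl replicate 3, while the share of all regions became 3.95%, 4.10% and 5.34%. Leaving out Res-ctrl replicate 1 or 2 gave 1 region specific to Res-ctrl (0.763% and 0.787%, against 0.515% and 0.571% of all regions).

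Of the specific regions, 2 lay upstream of Arntl and were weak. The outer one (chromosome 7, 113140125 to 113140539) lay 37932 bp outside the gene, and its highest pileup was 11, 13 and 7 in the 3 Res-shFabp7 libraries, with folds over the local background of 5.92, 7.46 and 4.08. The inner one (113160521 to 113160689), 17782 bp outside the gene, had pileups of 9, 6 and 12 and folds of 4.94, 3.75 and 6.64. Both stood on a background near that of the whole list, 0.87 to 1.03. The nearest Res-ctrl peaks to the outer region were 3115, 43333 and 3182 bp away in replicates 1, 2 and 3. Neither was specific at a q of 0.001, or where a library's peaks had to cover 50% of the region.

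**Figure D3:**
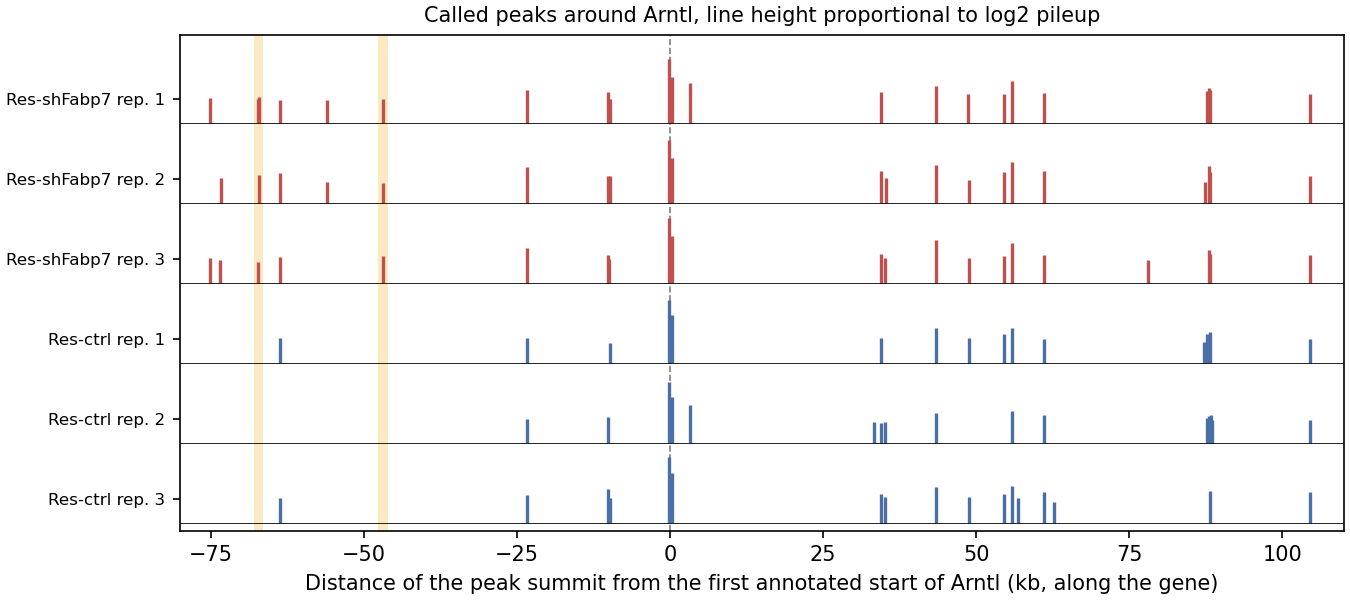
Called peaks around Arntl in the 6 libraries, Res-shFabp7 above Res-ctrl, by distance of the summit from the first annotated start in kb, with line height proportional to log2 pileup. Shading marks the 2 regions specific to Res-shFabp7, which carry short lines left of the start, while the tall lines at the start appear in all 6 rows.

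The specific regions at Per1 and Nr1d1 lay inside the genes, on a raised local background. The Per1 region (chromosome 11, 69102444 to 69102601), 2292 bp past its downstream start, had pileups of 36, 30 and 35 but folds of only 2.98, 2.89 and 3.22, since its local background was 11.4, 9.72 and 10.2. The Nr1d1 region (98772676 to 98772807), 2570 bp past its start, had pileups of 34, 37 and 36, folds of 2.78, 3.59 and 3.35 and a local background of 11.6, 9.60 and 10.0. The nearest Res-ctrl peak to it was 879, 881 and 204 bp away in replicates 1, 2 and 3. In replicates 1 and 2 that peak was the main opening of the gene, with pileups of 209 and 176. Where peaks were joined across gaps of up to 200 bp, the Nr1d1 region was no longer specific, and the Per1 region was.

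**Figure D4:**
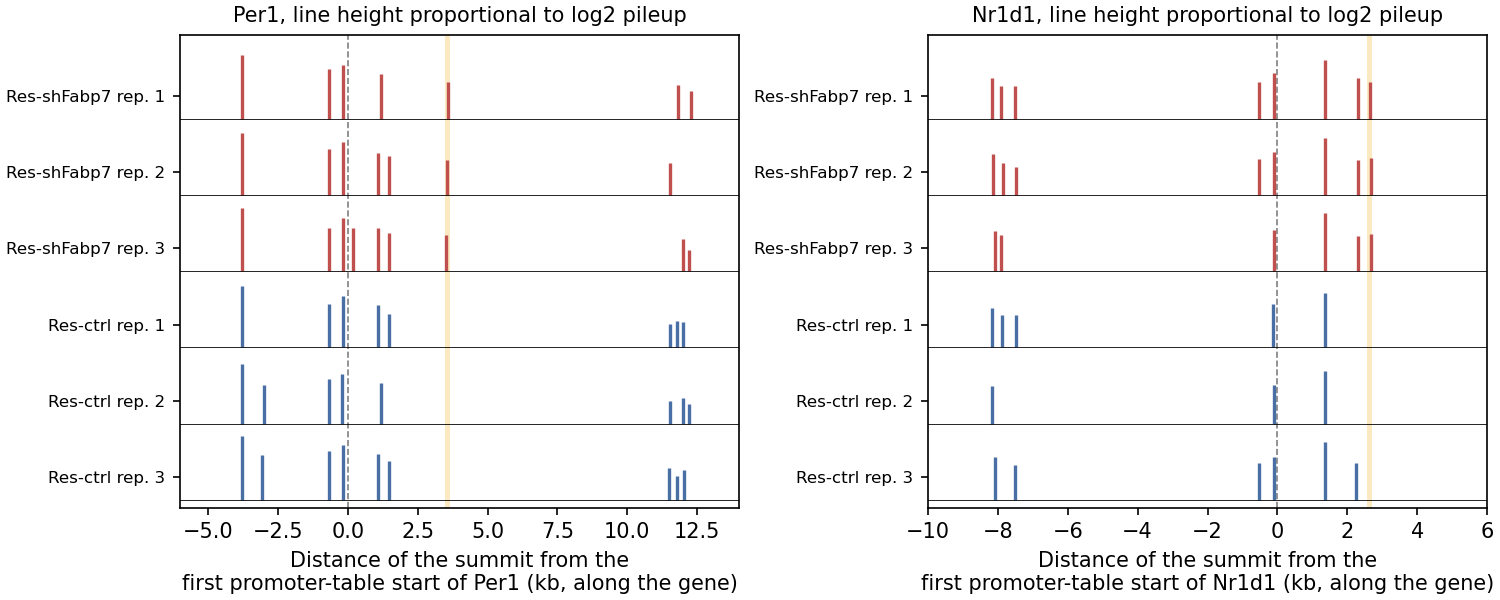
Called peaks at Per1 (left) and Nr1d1 (right) in the 6 libraries, Res-shFabp7 above Res-ctrl, by distance of the summit in kb from the first start in the promoter table, with line height proportional to log2 pileup. Shading marks the region specific to Res-shFabp7 in each gene, beside taller peaks that all libraries share.

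Heights were then compared in the regions that all libraries shared. The limma fit covered all 56610 shared regions, with Benjamini-Hochberg adjustment over all of them and a threshold of 0.05. At the clock genes 1 of 57 regions passed, lower with Res-shFabp7 (1.75%, against 1.4% of all shared regions), and 0 passed as higher, against 3.13%. At an unadjusted p under 0.05 there were 9 of 57 (15.8%), against 19.4% of all shared regions. The median difference over the 57 regions was -0.05 on the log2 scale, against -0.013 over all. Above 0 lay 23 (40.4%, against 48.0% of all shared regions), and 34 lay below. The groups did not overlap in 5 of the 57 regions that were higher with Res-shFabp7 and in 7 that were lower, against 11.2% and 10.6% of all shared regions. The counts that passed or did not overlap lay near the shares over all shared regions, those for higher below and those for lower slightly above.

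The region that passed lay 181 bp past the Arntl start (113207692 to 113207914), beside the tall start region and inside the gene. Its pileups were 68, 63 and 77 with Res-shFabp7, and 85, 71 and 98 with Res-ctrl. After normalisation the heights were 5.97 ± 0.13 and 6.51 ± 0.14 (SD, n = 3 each), and the groups did not overlap. It fell by 0.54 ± 0.14 (SE) on the log2 scale (limma, adjusted p = 0.0183). The taller start region next to it differed by -0.08 ± 0.07 (limma, adjusted p = 0.542). The call was lost under several settings. Leaving out Res-shFabp7 replicate 1 or 2 gave a limma adjusted p of 0.0998 and 0.0791, and leaving out Res-ctrl replicate 1 or 2 gave 0.115 and 0.0590. With the fold over local background as height it was 0.295, and with no intensity trend in the limma prior 0.131, and under each of these settings no region of any gene passed. Where gaps of up to 200 bp were joined, the region merged with the start region, and the difference was -0.08 with a limma adjusted p of 0.538.

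Several regions came close to the threshold. The Nr1d2 start region, whose promoter is shown above, had a normalised height of 7.78 ± 0.12 with Res-shFabp7, against 8.04 ± 0.13 with Res-ctrl (SD, n = 3 each), a difference of -0.26 ± 0.08 (SE; limma adjusted p = 0.0517). A region 995 bp outside Npas2 (39192447 to 39192707) had pileups of 33, 27 and 34 against 35, 30 and 54, and differed by -0.66 ± 0.21 (limma adjusted p = 0.0514). Both had groups that did not overlap after normalisation. Both passed with equal numbers of peaks (limma adjusted p = 0.0490 for Nr1d2 and 0.0452 for Npas2). A further Npas2 region, 95762 bp outside the gene (39097677 to 39097940), had pileups of 17, 28 and 23 with Res-shFabp7, against 23, 22 and 43 with Res-ctrl. It differed by -0.73 ± 0.25 (limma adjusted p = 0.0698), and the groups did not overlap after normalisation. In the other direction, an Arntl region inside the gene body, 23265 bp before the starts in the promoter table (113183848 to 113184200) had pileups of 21, 27 and 25 with Res-shFabp7, against 10, 9 and 13 with Res-ctrl. It differed by 0.77 ± 0.27 (limma adjusted p = 0.0856) and passed with median scaling (limma adjusted p = 0.0398). This Arntl region and the further Npas2 region are named for the size of their differences, chosen after their values were seen. Without Res-ctrl replicate 3 Nr1d2 also passed (limma adjusted p = 0.0183). The tallest Npas2 region differed by 0.33 ± 0.12 (limma adjusted p = 0.103) and passed as higher without Res-ctrl replicate 2 (0.50, limma adjusted p = 0.0173). The lowest p of Per3 was at a region 38165 bp past the start (151005767 to 151006500), with pileups of 92, 74 and 88 against 56, 36 and 73 and a difference of 0.40 ± 0.15 (limma adjusted p = 0.119). That of Cry1 was at 22836 bp past the start (85161833 to 85162218), with 25, 26 and 30 with Res-shFabp7 and 13, 13 and 18 with Res-ctrl (0.49 ± 0.25, limma adjusted p = 0.284). That of Nr1d1 was 7806 bp before the start (98783183 to 98783630), with 50, 52 and 51 against 47, 41 and 64 (-0.27 ± 0.17, limma adjusted p = 0.410). In the other genes the lowest p was at a start.

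**Figure D5:**
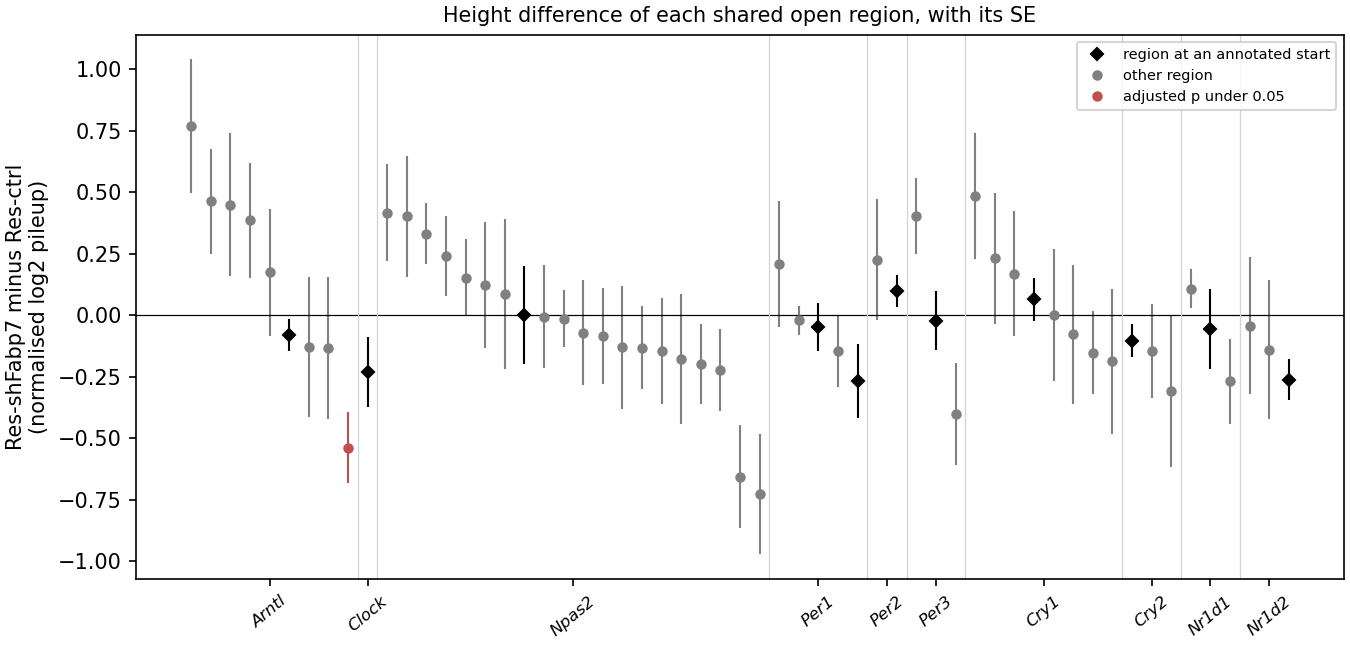
Difference in normalised log2 pileup, Res-shFabp7 minus Res-ctrl, with its SE, for the 57 shared regions of the clock genes, sorted within each gene. Diamonds are regions at an annotated start, and the red point is the Arntl region that passed the test at -0.54. Most start regions lie near or just below 0.

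At the starts most differences were small. The 10 shared regions that held an annotated start had a median difference of -0.07, with 8 of 10 below 0, and none passed the test. For Per2 the 5′ end of the gene body was used. The tallest Per1 region, at the 5′ end of the Per1 gene body, was not among the 10. Over all genes the 9066 shared regions that held an annotated start had a median of -0.04, and 60.2% lay below 0. The differences were 0.10 ± 0.07 at Per2, 0.07 ± 0.09 at Cry1, -0.10 ± 0.07 at Cry2, -0.02 ± 0.12 at Per3, -0.06 ± 0.16 at Nr1d1 and -0.23 ± 0.14 at Clock (SE; limma adjusted p of 0.380 or more). At Per1 they were -0.05 ± 0.10 at the upstream start and -0.27 ± 0.15 at the downstream one, and at Npas2 0.0011 ± 0.20 in the region beside the start. At Nr1d2 the difference was -0.26 ± 0.08 (limma adjusted p = 0.0517). There and at the downstream Per1 start (limma adjusted p = 0.328) the groups did not overlap, lower with Res-shFabp7. A p above the threshold does not show that the heights were equal. Median scaling moved the median over these 10 regions to -0.19 and that of all start regions to -0.14. All 10 then lay below 0, the Per2 and Cry1 values included, as did 7222 of the 9066 start regions over all genes. Cry2 and Nr1d2 passed the test as lower in this setting (limma adjusted p = 0.0373 and 0.00561). Over all genes this scaling also gave more regions that passed as lower, as counted in the last section.

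The clock genes outside the core were read in the same fits, with a list chosen when earlier results of these data were known. Of 18 genes, 17 had a region shared by all libraries, and Rorb, a nuclear receptor gene, had none. Of their 251 regions, 3 were specific to Res-shFabp7 (1.20%, against 2.28% of all) and 0 to Res-ctrl. Nfil3, a repressor acting on D-boxes, had 2 of them and Bhlhe40, a repressor acting on E-boxes, had 1 (chromosome 6, 108606751 to 108607152, pileups of 12, 13 and 9). Of their 102 shared regions, 4 passed as higher with Res-shFabp7 and 0 as lower. They were single regions at Arntl2, the paralogue of Arntl (1.12 ± 0.27, SE; limma adjusted p = 0.00855), at Tef, a D-box activator (0.83 ± 0.25), at Bhlhe40 (0.73 ± 0.20), and at Fbxl21, a ligase subunit acting on CRY proteins (0.47 ± 0.10). Arntl2, Tef and Fbxl21 are named after their values were seen. The Arntl2 region had pileups of 36, 22 and 34 with Res-shFabp7, against 7, 10 and 17 with Res-ctrl, and the groups did not overlap. These 4 are 3.92% of the 102, against 3.13% of all shared regions that passed as higher. The 0 lower stand against 1.4%, and in both directions together 4.53% of all shared regions passed.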

How the data were processed

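Open chromatin was measured in 6 libraries, with 1 peak list each. Per the file headers, the authors deposited the pileup at the summit (a coverage signal not scaled to depth), the fold (a ratio to local background) and a p-value and q-value as −log10, with q up to 0.05. The build was mm10, with MACS2 (2.2.7.1), Bowtie (1.1.2), cutadapt (2.8) and Trim Galore (0.6.5) named in the submitters' processing notes. Read shifting, duplicate handling and caller mode are not stated there. Starts and summits count from 0 in the lists, as inferred from their values, and are given here from 1. The labels give 35000000 to 75000000 read pairs per sample, not assigned to single libraries.

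Peaks were joined at an overlap of 1 bp, and a region belonged to a gene if a summit in it did. The highest log2 pileup per region and library was quantile normalised and tested with limma 3.58.1 in R 4.3.3 (intensity trend in the prior), Res-shFabp7 minus Res-ctrl, without a replicate block. The fit was tested on simulated heights, where it found fewer of the smaller changes than of the larger. Gene counts were compared by two-sided exact permutation. Alternatives changed the q threshold, list length, joining, coverage, assignment, scaling, measure of height, filter, prior and block, and left out each library in turn. Named regions are those at a start, those specific to a group, and per gene the one with the lowest p and the tallest. The members, lists, tests and alternatives were chosen with earlier results of these data known. Same-numbered libraries did not deviate together in these heights, and numbers were not used as pairs. How the libraries were prepared cannot be read from this.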

Additional observations from a re-analysis of the deposited data

How the results depend on the processing

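A region without a call is not shown to be closed, and reads per library are known only as a range. Clock gene regions specific to Res-shFabp7 numbered 2 at a q of 0.001, 0 with equal numbers of peaks and 12 where 2 of 3 libraries sufficed (2 for Res-ctrl there), against 4 (0 for Res-ctrl), and 4 to 7 (0 to 1 for Res-ctrl) leaving out 1 library. At a q of 0.001 they were 1.61% of clock gene regions, against 2.23% of all regions. Where 2 of 3 libraries sufficed they were 9.16%, against 7.28%, and for Res-ctrl 1.53%, against 1.1%. Leaving out 1 library, the share of all regions was 2.93% to 5.34% for Res-shFabp7 and 0.32% to 0.571% for Res-ctrl. The difference in clock gene peaks, 20.4% of the Res-ctrl mean, was -4.37% with equal numbers and 1.85% per 1000 peaks, and 18.3% to 24.2% leaving out 1 library. Clock regions lower in height numbered 1 of 57 (0 higher) in the main fit, against 792 of 56610 over all genes. They were 3 of 53 with equal numbers, against 791 of 52198, and 4 of 57 with median scaling (1 higher there), against 2010 of 56610. With the replicate block they were 2 of 57, against 874 of 56610. In these settings the share called lower was larger at clock genes than over all genes, on few regions. Above the median height they were 2 of 27, with fold as height 0 and without the trend 0. Leaving out 1 library gave 0 to 2 (0 to 1 higher). Over all genes 1773 regions were higher and 792 lower. Median scaling gave 2010 lower, so that 48.3% of calls were higher in place of 69.1%, the upper regions 1128 higher, fold as height 0 and 0 (7888 at an unadjusted p under 0.05), no trend 0 and 0 (9811), and leaving out 1 library 462 to 2217 and 248 to 917. Uncalled differences changed sign at the Npas2 start region (-0.0077 with equal numbers, -0.023 with joined gaps), at Per2 (-0.040), Cry1 (-0.060) and the main Nr1d1 opening (-0.018) with median scaling. Leaving out 1 library gave -0.073 to 0.064 at the Npas2 start region, -0.045 to 0.0016 at the tallest Per1 region, -0.099 to 0.00060 at the upstream Per1 start, -0.17 to 0.093 at the Nr1d1 start and -0.11 to 0.094 at Per3. The causes were not tested. Deviations of same-numbered libraries correlated at -0.032, 0.028 and -0.018, and those of differently numbered ones at -0.052 to 0.069. This cannot show whether same-numbered libraries shared an animal or a day. The replicate block gave 1919 and 874 regions over all genes.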
